A study of Caenorhabditis elegans with 2 samples.

Results

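The Hedgehog-related and patched-related genes of Caenorhabditis elegans were examined for binding of the RUNX factor RNT-1 in first-stage larvae. They were taken by name as the protein-coding genes called grd, grl, wrt, hog, qua, ptr or ptc followed by a number, which gave 85 of the 19973 protein-coding genes of the nuclear chromosomes in the Ensembl annotation of WBcel235. Of these, 59 are ligand-like (31 grl, 16 grd, 10 wrt, hog-1 and qua-1) and 26 are receptor-like (24 ptr, with ptc-1 and ptc-3); ptc-2 was not analysed here. The data are ChIP-seq (sequencing of chromatin fragments pulled down with an antibody) with an antibody against green fluorescent protein, in 2 biological replicates that form 1 group. Each replicate consisted of whole L1 hermaphrodites, 6 h after they had been synchronized as starved larvae following bleaching. The strain was OP462, of genotype unc-119(tm4063) III; wgIs462, in which the wgIs462 insertion supplies RNT-1 tagged at its C-terminal end with GFP and FLAG. All animals carried the unc-119 allele and the transgene, so no untagged or wild-type group stands beside them, and the control experiment that the labels name as possible was not analysed here. Whole animals were used, so the cell type behind a peak cannot be told from these lists.

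In other animals Hedgehog is a secreted ligand that is cut by its own C-terminal domain, loaded with cholesterol, and sensed by the membrane protein Patched, which then releases the signal transducer Smoothened. C. elegans has no Smoothened homologue, but it has large families of secreted proteins related to Hedgehog, the warthog (wrt), groundhog (grd), ground-like (grl), hog and quahog (qua) proteins, and of membrane proteins with a sterol-sensing domain, the patched (ptc) and patched-related (ptr) proteins. Many of them are known for parts in the epidermis, the cuticle and its molting, and ptc-1 for cytokinesis in the germ line. RNT-1 itself is best known for controlling division of the seam cells, stem-like cells of the lateral epidermis.

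Of the 85 genes, 16 had a peak of tagged RNT-1 within 2 kb of an annotated start, and the 3 highest signals among those peaks lay nearest to other genes. A peak here is a region of the authors' optimal list, set by the irreproducible discovery rate (IDR), whose summit lies within that distance of any transcript start of the gene. That is a statement on position and not on regulation. The 16 genes are 18.8% of the members (95% interval 11.2 to 28.8% by the exact Clopper-Pearson method, which covers counting error alone), beside 25.4% of all protein-coding genes. The ligand-like genes had a peak at 13 of 59 (22.0%, interval 12.3 to 34.7%) and the receptor-like genes at 3 of 26 (11.5%, interval 2.45 to 30.2%). These intervals overlap, and the difference between the groups was not tested, because genes are not replicates and both were chosen by name with results of these data known. The intervals for all members and for the ligand-like genes count grd-13, grd-3 and grd-10, which share 1 peak, as separate genes.

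The signal is the value the authors' caller gave each region, on a scale not given in the sources used here. Read depth is unknown, since the lists hold regions and not reads. The optimal list held 5560 peaks and proved to be the strongest regions of a pooled candidate list of 30000. Its weakest peak had a signal of 71.56, and the strongest region left out had 71.54. Those left out are called below-threshold regions. The list of each replicate also held 30000 regions and ended at a signal of 14.8 in replicate 1 and 15.5 in replicate 2, against 26.1 in the pooled list, so a gene without a region has an unmeasured low signal and not a 0.

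The windows of 101 bp around the summits of 7 peaks are printed here, on the plus strand of ce11 (the same sequence as WBcel235) as RefSeq gives it. They are the strongest peaks of the warthog and ground-like genes, the only peaks with a RUNX core (wrt-5 and grl-3), those of ptc-1 and ptr-24 on the receptor side, and the peak shared by grd-13, grd-3 and grd-10. Capitals mark the RUNX core, TGTGGT or TGCGGT, which reads ACCACA or ACCGCA when it lies on the minus strand.
wrt-5, strongest peak, IV:4049648-4049748: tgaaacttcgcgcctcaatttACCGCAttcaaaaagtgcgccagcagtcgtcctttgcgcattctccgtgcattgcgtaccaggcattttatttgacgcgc
grl-17, V:13565379-13565479: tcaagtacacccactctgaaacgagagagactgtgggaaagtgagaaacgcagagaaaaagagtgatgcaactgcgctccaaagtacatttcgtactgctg
grl-3, V:11412281-11412381: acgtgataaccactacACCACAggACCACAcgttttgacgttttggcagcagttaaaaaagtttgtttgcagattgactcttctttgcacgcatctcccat
grd-13, grd-3 and grd-10, shared peak, IV:3439533-3439633: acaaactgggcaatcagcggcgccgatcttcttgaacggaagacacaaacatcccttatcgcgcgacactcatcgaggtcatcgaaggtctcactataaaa
ptr-24, peak in the intron, X:13341109-13341209: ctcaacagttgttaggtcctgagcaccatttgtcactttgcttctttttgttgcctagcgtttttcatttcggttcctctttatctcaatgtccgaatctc
ptr-24, peak upstream of the gene, X:13337181-13337281: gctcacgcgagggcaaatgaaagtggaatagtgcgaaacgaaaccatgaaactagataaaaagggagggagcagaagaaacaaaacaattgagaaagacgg
ptc-1, II:7891998-7892098: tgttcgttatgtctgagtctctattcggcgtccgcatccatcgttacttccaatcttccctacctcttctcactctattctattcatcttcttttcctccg

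Among the warthog genes 3 of 10 had a peak (30.0%, interval 6.67 to 65.2%), beside 25.4% of all protein-coding genes. They were wrt-5, wrt-1 and wrt-3. The strongest of all member peaks, at wrt-5 (WBGene00006951), lay at IV:4049602-4049798 with a pooled signal of 1085, rank 159 of 5560. Replicate 1 gave 526 and replicate 2 gave 562 there (544 ± 25.1, SD, n = 2). The summit is 876 bp downstream of an internal start of wrt-5, but it lies 308 bp past the 3′ end of that gene and 250 bp upstream of the start of pcn-1, the gene of the sliding clamp of DNA replication. Its window holds 1 RUNX core, the letters ACCGCA shown above. A second wrt-5 peak sat in coding sequence at IV:4050407-4050622, 59 bp downstream of the internal start, with a signal of 83.8 and rank 4911. Replicate 1 gave 56.8 and replicate 2 gave 22.9 at this peak (39.8 ± 24.0, SD, n = 2), a ratio of replicate 2 to replicate 1 of 0.403, the lowest at any member peak matched in both replicates. The peak inside the gene was thus the weak and uneven one of the pair.

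At wrt-1 (WBGene00006947) the peak at II:7529250-7529414 had a signal of 312, with 119 in replicate 1 and 191 in replicate 2 (155 ± 51.2, SD, n = 2). Its summit was 1678 bp upstream of wrt-1 and 325 bp from the start of ZK1290.5, the nearer gene. The gene wrt-10 ends 15 bp from the end of wrt-1 on the other strand. It had no peak, and its strongest below-threshold region had a signal of 36.3, 136 bp downstream of its start. The wrt-3 (WBGene00006949) peak at IV:9477693-9477908 was 345 bp upstream of the gene, which places it in an intron of the channel gene cng-3, and the region touches the noncoding genes F38E11.21 and F38E11.14. It had a signal of 153, with 75.4 in replicate 1 and 85.2 in replicate 2 (80.3 ± 6.93, SD, n = 2). Of the warthog peaks, only those of wrt-3 and the weaker of wrt-5 had a warthog start as their nearest start.

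Ground-like genes, the largest family, had a peak at 5 of 31 (16.1%, interval 5.45 to 33.7%), beside 25.4% of all protein-coding genes. They were grl-17, grl-10, grl-3, grl-26 and grl-11. Again the strongest were nearest to other genes. The grl-17 (WBGene00001726) peak at V:13565343-13565506 had a signal of 570, with 275 in replicate 1 and 304 in replicate 2 (289 ± 20.0, SD, n = 2). It lay 1488 bp upstream of grl-17 and 434 bp from the start of slrp-1. The grl-10 (WBGene00001719) peak at V:7776256-7776394 had a signal of 443, with 232 in replicate 1 and 226 in replicate 2 (229 ± 3.94, SD, n = 2). It lay 578 bp past the 3′ end of grl-10, 241 bp from the start of the ribosomal protein gene rps-30 and 258 bp from that of rpl-39, also a ribosomal protein gene, and within exons of the noncoding genes C26F1.13 and C26F1.14. Below-threshold regions nearer the start of grl-10 had signals of 41.8 at 300 bp upstream, 36.2 at 507 bp downstream and 42.0 at 918 bp downstream. The last of these was nearer to the start of rpl-39.

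The other ground-like peaks had the ground-like start as their nearest, and the peak regions at grl-3 and grl-26 overlap tRNA genes. The grl-3 (WBGene00001712) peak at V:11412223-11412438, in an intron 820 bp downstream of its start, had a signal of 275, with 140 in replicate 1 and 138 in replicate 2 (139 ± 1.59, SD, n = 2). Its window holds both of the ACCACA letters shown in capitals above, and the region also spans the tRNA gene WBGene00014422 (V:11412235-11412307, minus strand) and part of the noncoding gene K03B8.18. The left ACCACA lies inside that tRNA gene, and the right one runs across its edge. The grl-26 (WBGene00001735) peak at IV:322643-322727, 117 bp downstream of the start in the 5′ UTR, had a signal of 243, with 152 in replicate 1 and 96.1 in replicate 2 (124 ± 39.8, SD, n = 2). It overlaps the tRNA gene WBGene00023092 (IV:322632-322703, minus strand) and the noncoding gene K02D7.8. In all, 2 of the 16 peaks near members overlapped a tRNA gene (12.5%), beside 4.62% of all IDR peaks (257 of 5560). Whether the peaks belong to the tRNA genes or to the ground-like genes was not tested. At grl-11 (WBGene00001720) the peak at III:9118540-9118755, 284 bp upstream of the start and 908 bp from that of ced-11, had a signal of 130. Replicate 1 gave 86.3 and replicate 2 gave 36.2 (61.2 ± 35.4, SD, n = 2), while a region 111 bp downstream of the same start, just below the threshold at 71.0, had 27.1 in replicate 1 and 47.3 in replicate 2. The replicates thus differed at both regions of grl-11, in opposite directions.

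Groundhog genes had a peak at 5 of 16 (31.2%, interval 11.0 to 58.7%), beside 25.4% of all protein-coding genes. That interval counts genes that share a peak as separate. By nearest start the count was 3 of 16 (18.8%), beside 17.2%. All the groundhog peaks had signals below 174, the median of all IDR peaks. The strongest, at grd-6 (WBGene00001695), lay in intergenic sequence at V:9220528-9220743, 1230 bp upstream of the gene, with a signal of 121 and rank 3750. Replicate 1 gave 44.9 and replicate 2 gave 77.4 (61.1 ± 23, SD, n = 2), a ratio of 1.72, the highest at a member peak. The peak at grd-5 (WBGene00001694), V:8618848-8619063, was 76 bp upstream of the start and had a signal of 79.8. It had no region in replicate 1 and a signal of 26.6 in replicate 2, so no replicate error can be given for it.

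The other 3 groundhog genes with a peak, grd-13 (WBGene00001702), grd-3 (WBGene00001692) and grd-10 (WBGene00001699), shared 1. They lie in that order on the plus strand of chromosome IV, with 147 bp between grd-13 and grd-3 and 601 bp between grd-3 and grd-10. Their common peak at IV:3439475-3439690 had a signal of 79.8 and rank 5102, with 42.6 in replicate 1 and 33.2 in replicate 2 (37.9 ± 6.61, SD, n = 2). The summit lay 72 bp upstream of grd-3, 1271 bp downstream of the start of grd-13 and 1472 bp upstream of grd-10. A separate region at the start of grd-10 itself, 31 bp downstream of it, had 37.2 in replicate 1 and 41.1 in replicate 2 and a pooled signal of 71.15, just under the threshold. The count for grd-13 and grd-10 therefore rests on the peak whose nearest start is that of grd-3.

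The ligand-like genes hog-1 and qua-1, each the only gene of its name, had no peak. The strongest region at hog-1, whose protein is known for a Hedgehog-type self-cleaving domain, had a signal of 48.5, with 27.4 in replicate 1 and no matching region in replicate 2, and lay 694 bp upstream of the gene. At qua-1, known to be needed for molting, the only pooled region had a signal of 31.5, with no matching region in replicate 1 and 21 in replicate 2. Both are below the lowest IDR signal.

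On the receptor side, 2 of 24 patched-related genes (8.33%, interval 1.03 to 27.0%, beside 25.4% of all protein-coding genes) and ptc-1 had a peak. Each of the 4 peaks involved had that gene's start as its nearest. The gene ptr-24 (WBGene00004238) had a pair of them and 6 pooled regions in all, the most of any member. The stronger, at X:13341086-13341256, had a signal of 366 and rank 1084, with 187 in replicate 1 and 182 in replicate 2 (185 ± 3.06, SD, n = 2). It lies in an intron between the 2 annotated starts of ptr-24, 1022 bp upstream of the inner start and 3131 bp from the 5′ end of the gene. The other, at X:13337220-13337303, lies 797 bp upstream of the gene and had a signal of 270, with 180 in replicate 1 and 84.4 in replicate 2 (132 ± 67.3, SD, n = 2). The intronic peak was even between the replicates, while the upstream peak was more than 2-fold lower in replicate 2, with a ratio of 0.470. A region 31 bp upstream of the outer start, between those peaks, had a signal of 60.2, below the threshold.

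At ptc-1 (WBGene00004208), 1 of the patched homologues, the peak at II:7891940-7892155 lay in intergenic sequence 1174 bp upstream of the gene, with a signal of 272 and rank 1653. Replicate 1 gave 142 and replicate 2 gave 122 (132 ± 14.1, SD, n = 2). The region overlaps the noncoding gene T01H3.7. A region in an intron of ptc-1, 1475 bp downstream of a start, came close to the threshold with a signal of 68.5, with 42.0 in replicate 1 and 27.0 in replicate 2. The patched homologue ptc-3 had no peak, and its strongest region, 1399 bp upstream, had a signal of 38.7, with no matching region in replicate 1 and 19.5 in replicate 2. At ptr-23 (WBGene00004237) a weak peak at I:14908016-14908231, in an intron of the gene and 1116 bp upstream of its inner start, had a signal of 84.7 and rank 4875. Replicate 1 gave 37.0 and replicate 2 gave 42.1 (39.5 ± 3.62, SD, n = 2).

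**Figure D1:**
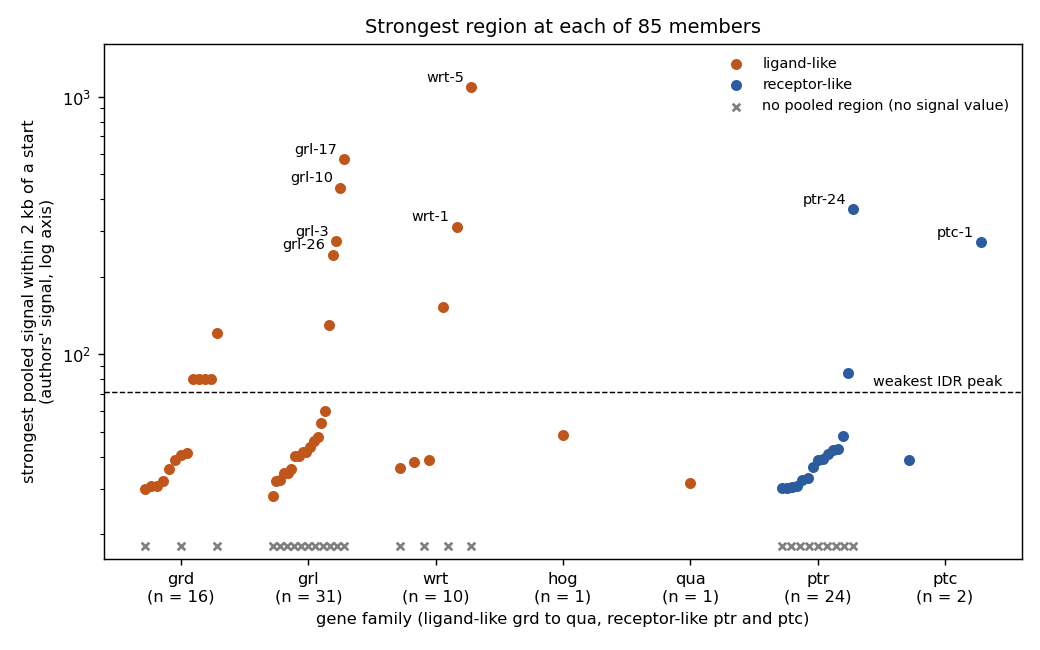
Strongest pooled region within 2 kb of a start for each of the 85 members, by gene family, as the authors' signal on a log axis. Orange points are ligand-like genes, blue points receptor-like genes, crosses are members with no pooled region and so no value, and the dashed line is the weakest IDR peak (71.56). The 16 members above the line range from 79.8 to 1085, and 3 of them are receptor-like.

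The 16 members held 16 distinct peaks, 12 near ligand-like and 4 near receptor-like genes, and 12 of the 16 had a member as the gene of nearest start. The other 4 were the strongest wrt-5 peak and those of grl-17, grl-10 and wrt-1, all near ligand-like genes and each among the 5 strongest. If a peak is given only to its nearest start, the count falls to 11 of 85 members (12.9%), 8 of 59 ligand-like genes (13.6%) and 3 of 26 receptor-like genes (11.5%), beside 17.2% of all protein-coding genes. By that rule the intervals were 6.04 to 25.0% for the ligand-like and 2.45 to 30.2% for the receptor-like genes, and so overlapped. The loss comes from the ligand-like genes, with grl-17, grl-10, wrt-1, grd-13 and grd-10 dropping out.

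At shorter distances the counts were lower in both groups. Within 1 kb of a start, 8 members had a peak (9.41%), 7 ligand-like (11.9%) and 1 receptor-like (3.85%), beside 18.8% of all protein-coding genes. Within 500 bp there were 6 (7.06%), all ligand-like and none receptor-like, beside 14.8%. Of the 18 pairs of a member and a peak, 12 had the summit upstream of the start and 9 lay within 1000 bp. By annotation, 9 of the 16 summits were in a promoter, the 1 kb upstream of a protein-coding start of any gene, beside 52.6% of all IDR summits. Of the others, 3 were in introns (beside 16.8% of all), 2 in intergenic sequence (22.5%), 1 in a 5′ UTR (1.42%) and 1 in coding sequence (2.91%).

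**Figure D2:**
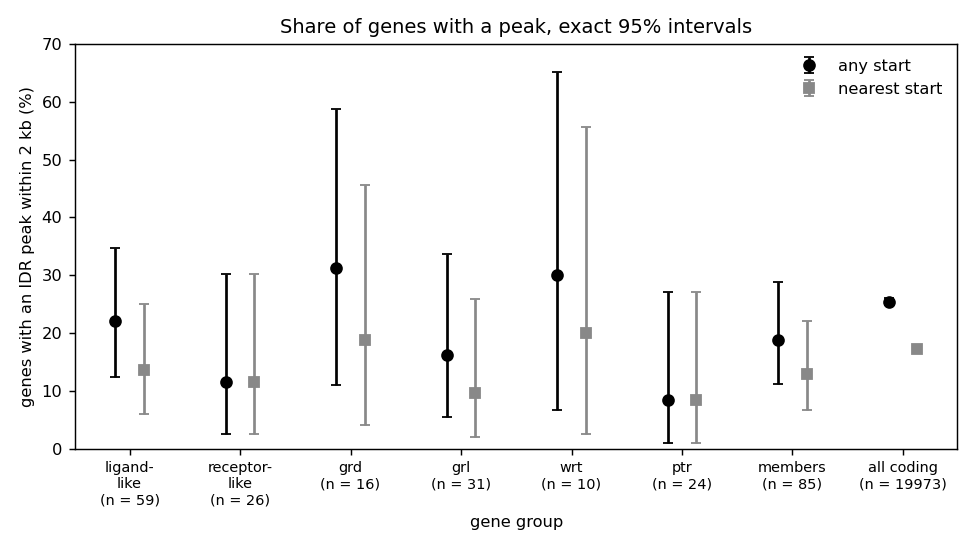
Share of genes with an IDR peak within 2 kb, in percent, for the ligand-like and receptor-like genes, the 4 larger families, all members and all protein-coding genes, with exact 95% intervals as bars. Circles count a peak for every gene with a start in reach and squares only for the gene of nearest start; the ligand-like share is 22.0% and 13.6%, and the receptor-like share 11.5% under both.

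**Figure D3:**
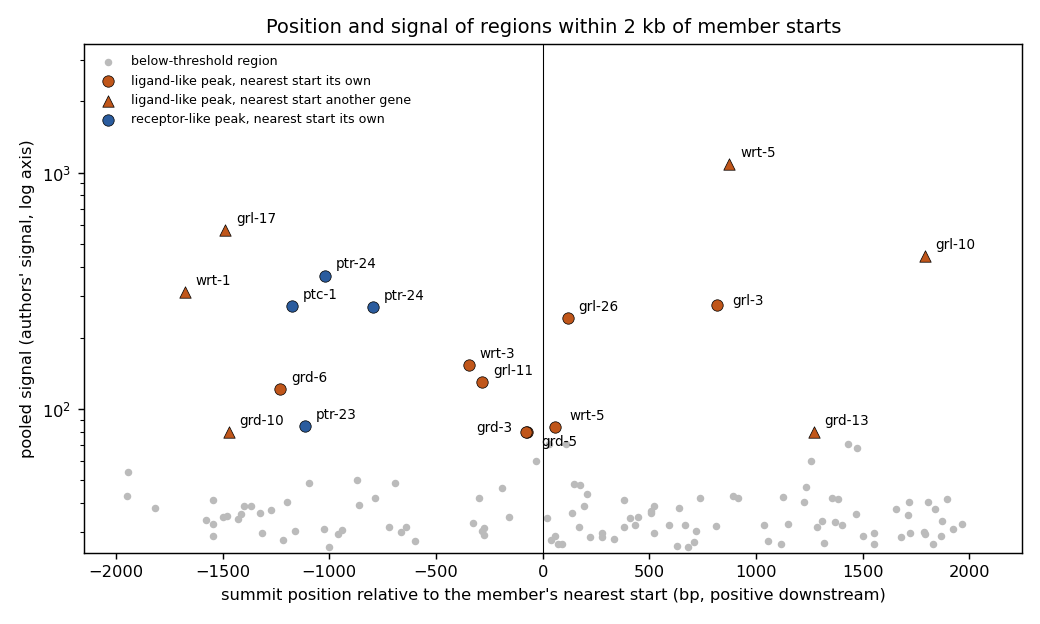
Pooled signal (log axis) against the position of the summit relative to the nearest start of the member, in bp with positive values downstream, for every region within 2 kb of a member start. Circles are IDR peaks whose nearest start is that of the member, triangles are peaks nearest to another gene, which for grd-10 and grd-13 is grd-3, and grey points are below-threshold regions. The receptor-like peaks (blue) all lie between 797 and 1174 bp upstream of a start.

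The peaks near members had a median signal of 257, beside 174 over all 5560 peaks, and ranged from 79.8 to 1085. They were spread over the list, with 9 of 16 among the stronger 2780 peaks and 4 among the strongest 1112. The windows had a median GC content of 44.1% (29.7 to 57.4%), beside 46.5% at all IDR peaks, and the median width of the regions was 216 bp in both sets. A RUNX core within 50 bp of the summit was present at 2 of the 16 (12.5%, interval 1.55 to 38.3%), those of wrt-5 and grl-3, beside 10.1% of all IDR peaks and 7.06% of below-threshold regions. That share is near the background. The wrt-5 core lies at the peak nearest to pcn-1. Among the 12 peaks whose nearest start is that of a member, 1 had a core (8.33%). In the 300 bp reaching from 250 bp before to 50 bp after the gene start, a core was present at 8 of 59 ligand-like genes (13.6%) and 6 of 26 receptor-like genes (23.1%), or 14 of 85 members (16.5%), beside 15.0% of all protein-coding genes. A match is a description of letters and not of binding.

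Of the 16 peaks, 15 were matched in both replicates, the exception being grd-5. The median ratio of replicate 2 to replicate 1 was 0.977 (0.403 to 1.72), beside 0.895 over the 5282 matched IDR peaks. Those beyond 2-fold were 3 of 15, the weaker wrt-5 peak, the upstream ptr-24 peak and grl-11, all lower in replicate 2, beside 8.01% of matched IDR peaks (423 of 5282). Among the strongest 5560 regions of each replicate, 11 of the 16 were found in both, 2 in replicate 1 only, 1 in replicate 2 only and 2 in neither. Over all 5560 IDR peaks, 76.7% were found in both. The strongest wrt-5 peak and those of grl-17, grl-10 and grl-3, with the intronic ptr-24 peak, lay close to equal signal, with ratios of 1.07, 1.1, 0.976, 0.984 and 0.977 in that order.

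**Figure D4:**
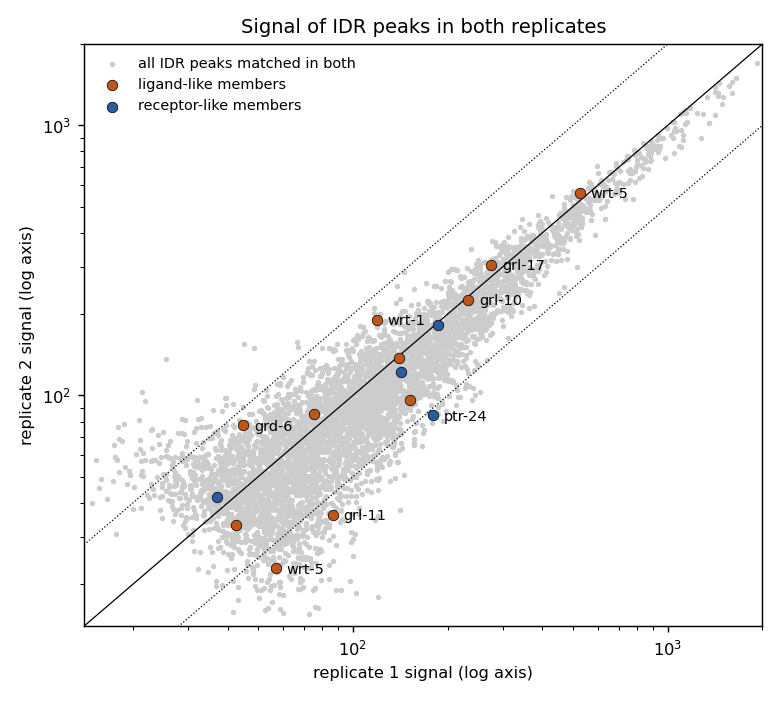
Signal in replicate 2 against replicate 1, both on log axes, for the 15 member peaks matched in both replicates (orange ligand-like, blue receptor-like) and all 5282 matched IDR peaks (grey). The solid line marks equal signal and the dotted lines a 2-fold difference; the weaker wrt-5 peak, grl-11 and the upstream ptr-24 peak lie beyond the lower dotted line.

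Counting every candidate region, the members were near the background. A pooled region lay within 2 kb of a start at 41 of 59 ligand-like genes (69.5%) and 17 of 26 receptor-like genes (65.4%), or 58 of 85 members (68.2%), beside 65.2% of all protein-coding genes. In both replicate lists the counts were 32 ligand-like genes (54.2%) and 16 receptor-like genes (61.5%), or 48 members (56.5%), beside 54.8%. So the ligand-like genes had the higher share by the first count and the receptor-like genes by the second. Candidate lists end at a fixed number of regions, so such a region may be background.

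Of the 69 members without a peak, 42 had a pooled region (60.9%), beside 53.4% of all protein-coding genes without a peak. These 42 had a median strongest signal of 38.5 (28.1 to 60.4). The median over all 24440 below-threshold regions was 34.7. That is not a like value, because it counts every region and not the strongest of each gene. The median was 38.5 for the 28 ligand-like genes and 37.5 for the 14 receptor-like genes among them. The strongest was at grl-14 (60.4), in coding sequence 1259 bp downstream of its start, where replicate 1 gave 16.9 and replicate 2 gave 38.7. Next was grl-13 (53.9), with 19.0 in replicate 1 and 26.8 in replicate 2, at a region 1943 bp upstream and nearer to F32D1.11. Then followed hog-1, given above, ptr-18 (48.0), grl-28 (47.6), grl-1 (46.1), grl-23 (43.7), ptr-12 (42.8), ptr-8 (42.6) and grl-24 (41.8). The ptr-18 region, 149 bp downstream of the start in an intron, had 22.3 in replicate 1 and 30.7 in replicate 2, and the grl-1 region, 189 bp upstream, had 22.2 and 28.0. Those of grl-28 and grl-23 matched no region in either replicate, and at ptr-8 and grl-24 only replicate 1 held a match, with 44.1 and 21.4. None of these reached the threshold, and none but ptr-8 exceeded 40 in a replicate.

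Within 2 kb of a start, some members known from work on the cuticle had no peak and low signals. These genes belong to the fixed set of members given below, in which ptc-1, wrt-1, wrt-5 and ptr-23 had a peak. At ptr-4, known for a part in remodelling the precuticle, there was no pooled region, and the strongest replicate regions had signals of 19.0 in replicate 1 and 18.4 in replicate 2. At ptr-2 the only pooled region had 30.2, in coding sequence 1789 bp downstream. At grl-21 the strongest had 35.8, 1413 bp upstream in coding sequence of the cyclin B gene cyb-1. No region of any list lay within 2 kb of grl-7, whose protein is known from the precuticle. The same held for 14 members in all (16.5%), beside 20.9% of all protein-coding genes. They were 9 ligand-like genes (grd-1, grd-15, grl-4, grl-5, grl-7, grl-8, grl-16, grl-20 and wrt-9) and 5 receptor-like genes (ptr-11, ptr-17, ptr-19, ptr-22 and ptr-25).

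Peaks just beyond the 2 kb limit, up to 3 kb, were found at 5 of the 69 members without a peak inside it (7.25%), beside 7.32% of all protein-coding genes without one. The farthest member start inside the limit was that of grl-10, at 1792 bp. Outside it were peaks at ptr-21 (signal 267, 2541 bp upstream, with 122 in replicate 1 and 151 in replicate 2), grl-1 (76.6, 2568 bp upstream), hog-1 (100, 2685 bp downstream of its start), grl-21 (479, 2755 bp upstream) and ptr-10 (896, 2965 bp upstream). The ptr-10 peak, with 486 in replicate 1 and 418 in replicate 2, ranks 247 of 5560, and only the strongest wrt-5 peak inside the limit has a higher signal. The start of F55F8.7 lies between this peak and ptr-10, so the nearest start is not that of ptr-10. The grl-21 peak, with 267 in replicate 1 and 215 in replicate 2, ranks 714 and lies by the start of orc-5, a gene of the origin recognition complex, and the grl-1 peak by those of cox-16 and syp-2. The hog-1 peak lies past the 3′ end of hog-1.

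Ligand-like genes had a median length of 1784 bp and receptor-like genes 6153 bp, beside 2027 bp for all protein-coding genes, so a window around starts leaves out more of the receptor-like genes. An IDR summit lay inside the gene at 3 of 59 ligand-like genes (5.08%) and 4 of 26 receptor-like genes (15.4%), or 7 of 85 members (8.24%), beside 6.48% of all protein-coding genes. Beside ptr-23 and ptr-24, these receptor-like genes were ptr-12, with a peak of signal 252 in an intron 3608 bp downstream of its start, and ptr-13, with a peak of 272 in an intron 4588 bp downstream, where the noncoding gene K07C10.5 also lies. Inside gene bodies the receptor-like share was the higher, on 4 genes against 3 and with no interval made. Within 2 kb of starts the ligand-like share was the higher, with overlapping intervals. The part of gene length in this was not tested. The median distance from a start to the nearest IDR summit was 7929 bp for ligand-like genes, 8080 bp for receptor-like genes and 7549 bp for all. Within 5 kb there was a peak at 24 ligand-like genes (40.7%) and 7 receptor-like genes (26.9%), beside 40.3% of all, and within 10 kb at 32 (54.2%) and 15 (57.7%), beside 57.3%.

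**Figure D5:**
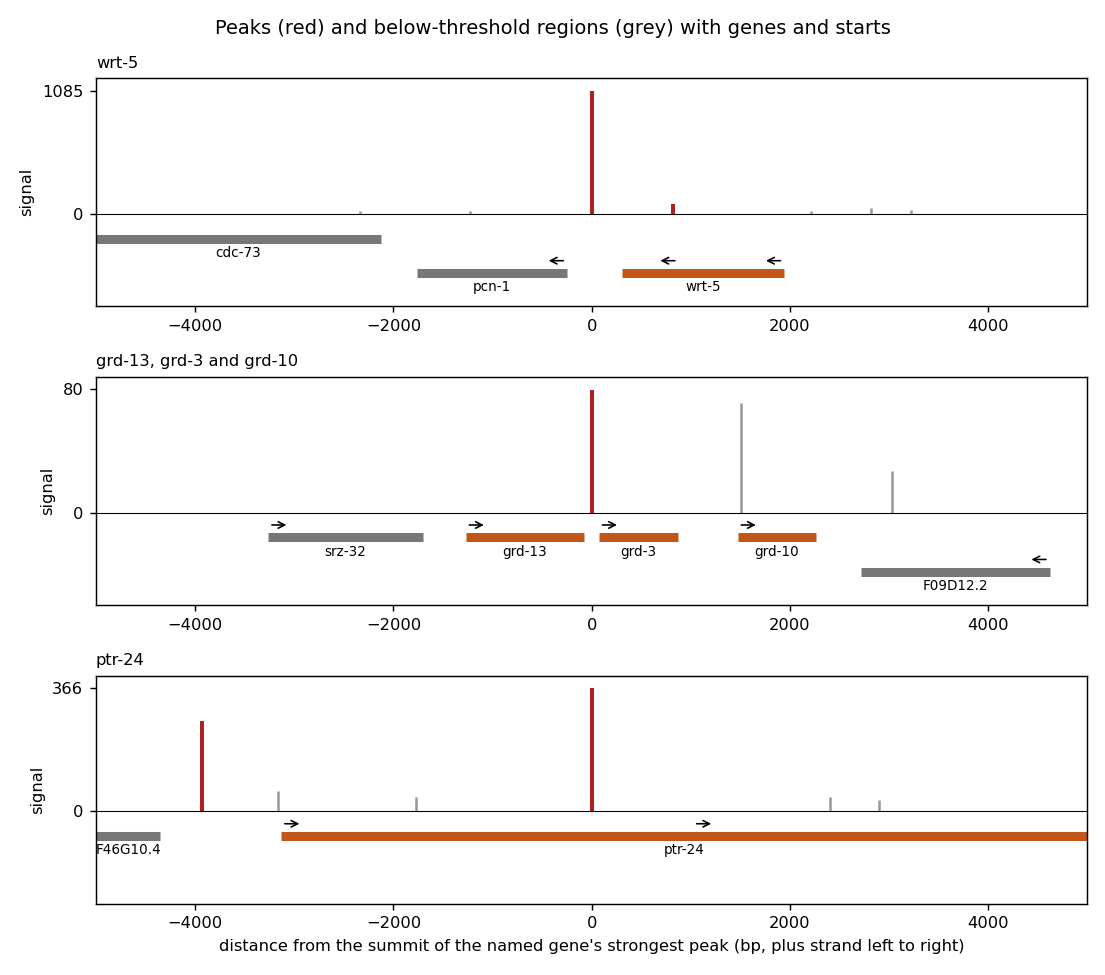
Regions around wrt-5, the grd-13, grd-3 and grd-10 array, and ptr-24, with the authors' signal on a linear axis against the distance in bp from the summit of the strongest peak. Red bars are IDR peaks and grey bars below-threshold regions, orange boxes are members, grey boxes other protein-coding genes, and arrows mark annotated starts. The strongest wrt-5 peak (1085) lies outside that gene, between it and pcn-1, while the stronger ptr-24 peak (366) lies inside the gene.

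The members are unevenly spread over the chromosomes. Chromosome V holds 32 of them, 28 ligand-like and 4 receptor-like, and 5 had a peak there (15.6%), beside 17.0% of all protein-coding genes of that chromosome. Chromosome IV holds 13, 12 ligand-like and 1 receptor-like, and 6 had a peak (46.2%), beside 23.3%; 3 of the 6 are the grd genes that share a peak. On X, with 10 ligand-like and 3 receptor-like genes, only ptr-24 had a peak (7.69%), beside 28.4%. On chromosome I, with 2 and 7, only ptr-23 had one (11.1%), beside 32.3%. Chromosome II, with 3 and 8, had 2, at wrt-1 and ptc-1 (18.2%), beside 24.9%, and chromosome III, with 4 and 3, had 1, at grl-11 (14.3%), beside 33.7%. With so few members on each chromosome, the gain or loss of a single gene moves these shares widely.

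Of 14 other genes linked by homology to Hedgehog signalling or sterol transport, 7 had a pooled region, beside 65.2% of all protein-coding genes. Just 1 of the 14 had a peak. That gene was kin-1, which encodes the catalytic subunit of protein kinase A and had 6 peaks at its several starts on chromosome I. Their signals ranged from 79.6 to 292, the highest with 159 in replicate 1 and 120 in replicate 2 at 199 bp upstream of a start. Below the threshold were hhat-1, a homologue of Hedgehog acyltransferase (46.1, with 29.4 in replicate 1 only), and tra-2, a membrane protein of sex determination (40.2). So were ncr-2, a homologue of the cholesterol transporter NPC1 (37.1), lrp-1, the megalin homologue (36.9), scp-1 (33.2) and phg-1 (30.0). No pooled region lay within 2 kb of tra-1, the homologue of the GLI factors, che-14, the Dispatched homologue, ptd-2, daf-6, which is patched-related, ncr-1, hhat-2 or gsk-3. With 1 of 14 genes, the share of these genes with a peak is too coarse to set beside the 25.4% of all genes.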

How the data were processed

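Tagged RNT-1 was measured by ChIP-seq in 2 replicates, whose grouping and numbers come from the labels. The authors deposited region lists in narrowPeak form on ce10 and ce11. Those on ce11 were used, a list for each replicate, one for the pooled replicates and the optimal IDR list. The ce10 lists were not used here, and no coordinate was converted. Regions were ranked by the signal value that the authors deposited. Its scale, and the aligner and peak caller behind it, are not given in the sources. The deposited −log10 p and −log10 q columns were not used for any result. Intervals that need the read depth, which is unknown, were not made.

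Summits (region start plus the deposited offset) were set against the starts of all annotated transcripts of protein-coding genes in Ensembl release 115 for WBcel235, and coordinates are 1-based. As a check of the build, 99.89% of 31805 annotated start codons read ATG in the RefSeq genome. Of the IDR summits, 5 lay at or past the end of their region, none near a member. Replicate values come from the region that contains the pooled summit, and from the one with the closer summit where several do. The RUNX core was searched on both strands, up to 50 bp either side of a summit. No test was made, as there is 1 group of 2 replicates. Scripts used Python 3.11.15, numpy 2.4.6, pandas 2.3.3, scipy 1.17.1 and matplotlib 3.10.9, and recovered all planted genes, distances and motifs when tested on simulated data.

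The members, lists and alternatives were chosen with earlier results of these data known. Named are every member with a peak, the 10 others with the strongest pooled regions, a fixed set of members (ptc-1, ptc-3, ptr-2, ptr-4, ptr-23, wrt-1, wrt-5, wrt-10, hog-1, qua-1, grl-7 and grl-21) and the 14 related genes. Members with a peak inside the gene or just outside 2 kb, and those with no region, were named after their values were seen. Alternatives were other distances, the nearest start, the 5′ end only, any overlap, the stronger peaks, each replicate alone, chromosome X left out, and other matching and motif rules.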

Additional observations from a re-analysis of the deposited data

How the results depend on the processing

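Of 40 alternatives run, 28 left the value within 1.5 times (counts) or within its error, and 12 moved it. The count of members with a peak (16) became 8 within 1 kb and 6 within 500 bp, 8 with only the stronger 2780 peaks, and 10 with only peaks among the strongest 5560 of both replicates, a choice made after seeing the data. Ligand-like genes (13) became 8 by nearest start, 7 within 1 kb, 6 within 500 bp, 6 in the stronger 2780 peaks and 8 with peaks strong in both replicates. Receptor-like genes (3) became 1 within 1 kb and 0 within 500 bp, with no test and so no unadjusted p to give. Members with a region in each replicate (48) became 31 within 1 kb. Leaving out 1 replicate gave 12 to 16 members, 9 to 13 ligand-like and 3 receptor-like. A single replicate has no IDR list, so these counts rest on the strongest regions of its candidate list. From replicate 2 alone grl-14 was gained (rank 5474 there) and grd-5 lost. From replicate 1 alone ptr-8 was gained (rank 5410 there) and grd-3, grd-5, grd-10, grd-13 and ptr-23 were lost. A gene that stayed need not have kept its peak. In replicate 2 the peak shared by the grd genes ranks 6693, and grd-3 and grd-10 stayed through the region at the start of grd-10 (41.1, rank 5160). Without member peaks in noncoding exons, also chosen after seeing the data, 13 members remained, without grl-3, grl-10 and grl-26. Only peaks near members were left out there, so the share that remained cannot be set beside that of all genes. In the other settings the share over all members stayed below that of all protein-coding genes. These settings reuse the same lists, so they are not separate support for a lower share. The interval of the main share, 11.2 to 28.8%, includes the 25.4% of all genes. No interval was made for the shares within 1 kb (9.41%, beside 18.8%) or 500 bp (7.06%, beside 14.8%), so this holds for the main share alone. With chromosome X left out the ligand-like share was 26.5% (13 of 49), above the 24.9% of all genes. No paired analysis was possible because there is 1 group. The grd-5 peak and the one shared by grd-13, grd-3 and grd-10 have signals near the end of the list, and depth is unknown.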
